A study of Mus musculus with 6 samples.

Results

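Fatty acid oxidation and ketone metabolism were examined as a set of 43 listed genes in the pancreas of OCaR1-/- mice and wild-type mice. A gene of the list was used where the deposited table has a row for it that Cuffdiff tested, and 39 of the 43 genes met that condition, out of 11478 tested genes in all. The other 4, Cpt1b, Acaa1b, Acot1 and Acot2, have no row under their own symbol, a RefSeq synonym or an Ensembl identifier and were not analysed here. RNA was sequenced from 3 male OCaR1-/- mice and 3 male wild-type mice, all 3 weeks old and untreated. The labels' protocol names the wild type C57Bl6/N, while the strain field reads C56Bl6/N for all 6 animals. OCaR1 is the product of Tmem63a, which is background knowledge; the labels used here do not say how the null allele was made or whether the animals were littermates. The genes were chosen with results of this same contrast known, so their levels, ratios and calls below are a description and carry no test of the set.

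Mitochondrial fatty acid oxidation begins when acyl-CoA synthetases activate a fatty acid and the carnitine shuttle carries the acyl chain across the inner membrane. Dehydrogenation, hydration, another dehydrogenation and thiolysis then shorten the chain in repeated rounds, and electron transfer flavoprotein passes the electrons of the first step to the respiratory chain. Peroxisomes run a related cycle on very long and branched chains. Ketone bodies are made from acetyl-CoA mainly in liver and are used for energy elsewhere, and the nuclear receptor PPARα is the best known activator of many of these genes. The pancreas sample is mostly acinar tissue, whose cells make digestive enzymes.

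Each level below is the authors' FPKM, the number of sequenced fragments relative to transcript length and to the size of the library. The authors give 1 such value per genotype from its 3 libraries together, so mice cannot be shown one by one and no SD exists. A log2 ratio is the OCaR1-/- value over the wild-type value, and a negative one means less in OCaR1-/-. The words called, rose and fell are kept for genes whose q in the authors' Cuffdiff test, adjusted over all tested genes, is under 0.05. Whether the 3 animals of a genotype agreed cannot be seen in these values. In whole tissue, fewer cells of a type and less RNA per cell cannot be told apart.

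The samples had the RNA of exocrine pancreas: 13 acinar marker genes made up 45.1% of the summed FPKM in OCaR1-/- and 49.4% in wild type. Tmem63a itself had 4.91 FPKM in OCaR1-/- and 18.3 FPKM in wild type. Over all tested genes the authors' deposited table called 7.54%, with 3.35% lower and 4.20% higher in OCaR1-/-, and the median log2 ratio was -0.03.

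Genes of fatty acid oxidation that were called were all lower in OCaR1-/-. The authors' deposited table called 9 of the 39 tested genes lower (23.1%, where 3.35% of all tested genes were) and 0 higher by Cuffdiff, with 13 at an unadjusted p under 0.05, also all lower. Of all tested genes 17.5% had such a p, counting both directions. The 9 are Cpt1a, Slc25a20, Acadl, Acads, Hadh, Acaa2, Eci2, Etfdh and Acaa1a, and they fell by 1.45-fold to 2.12-fold. They belong to 6 of the 10 roles into which the tested genes were sorted: shuttle, first dehydrogenation, later steps of the cycle, enzymes placed in both organelles, electron transfer and peroxisomal oxidation. The median log2 ratio of the 39 genes was -0.11, beside -0.03 for all tested genes. By place it was -0.23 for 20 mitochondrial genes, -0.16 for 6 peroxisomal genes and 0.28 for 3 ketone genes. FPKM depends on what else is in a library. Rescaling so that all genes except the acinar markers sum to the same total shifts every log2 ratio by -0.16. A shift downward cannot turn the signs of the 9 called genes, which were already below 0. The 3 ketone genes could have turned and stayed above 0.

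**Figure D1:**
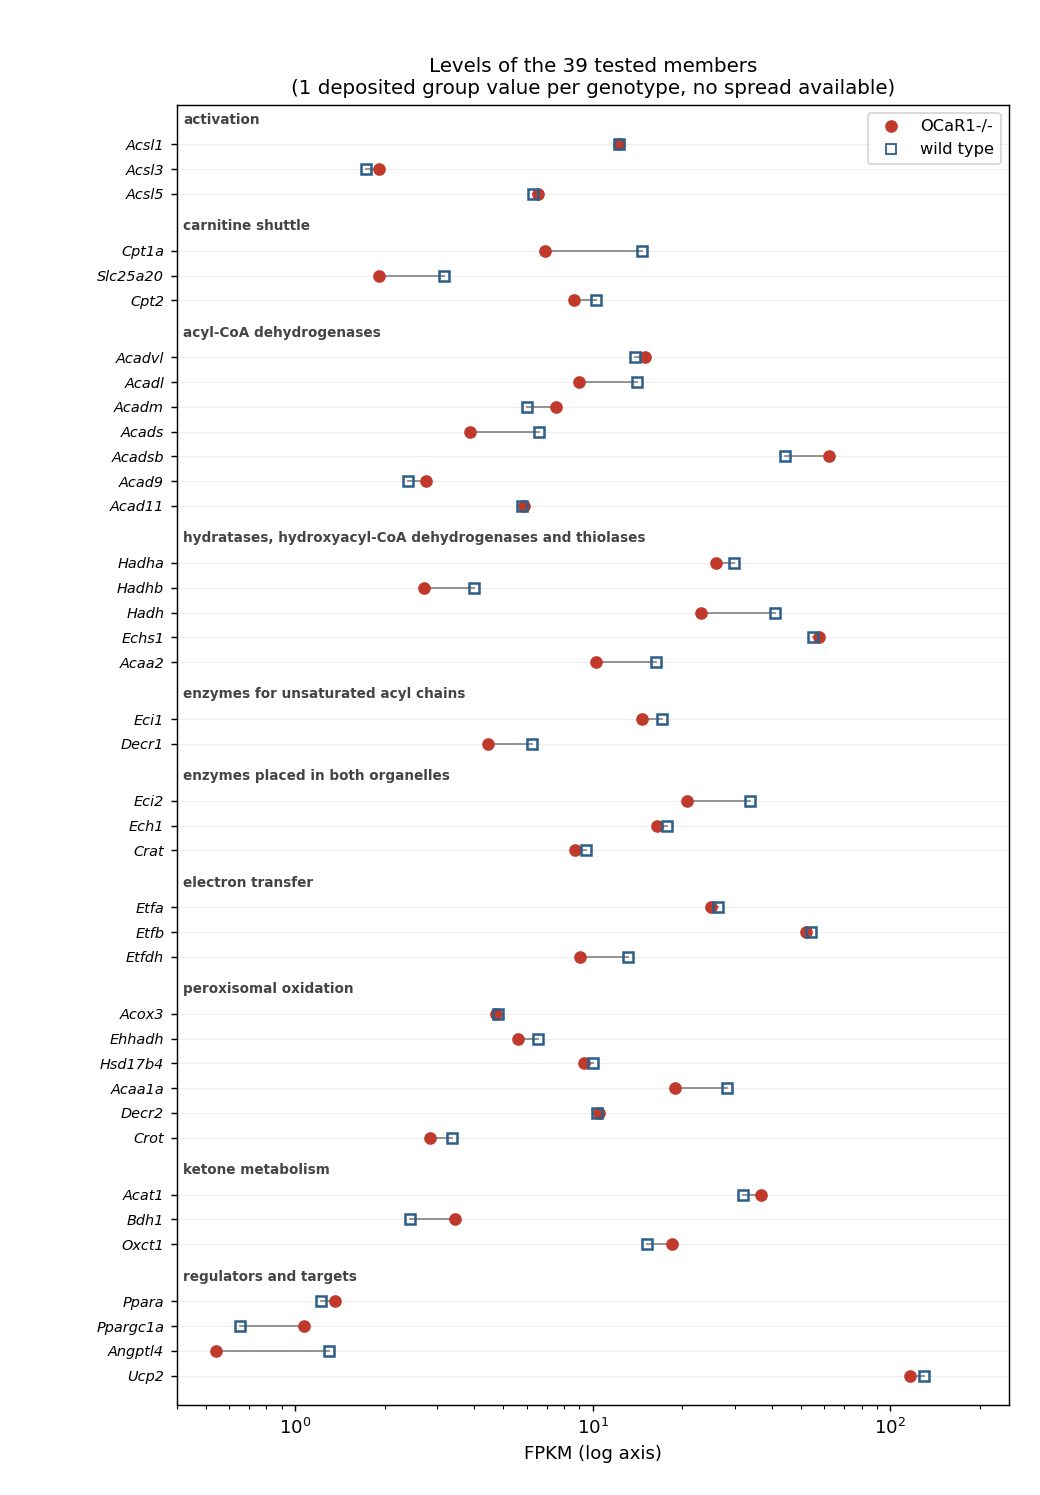
FPKM of the 39 tested genes on a log axis, grouped by role, with a filled circle for OCaR1-/- and an open square for wild type, each 1 deposited group value without error. Ucp2 is highest at 116 FPKM in OCaR1-/- and 130 FPKM in wild type, and the widest gap among the called genes is that of Cpt1a.

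The 9 called genes lie on 7 chromosomes. To show the region upstream of the called genes, the 250 bases before the RefSeq start (build GRCm38.p6) were taken for the 4 below, which include the gene with the largest fall and 3 whose windows hold no base of an annotated exon. Each is written 5′ to 3′ on the strand of its gene. Capitals mark AGGTCA, the core motif of nuclear receptors, and GGGCGG, the GC box, on either strand (TGACCT and CCGCCC on the other). The Cpt1a window is chr19:3323051-3323300 on the plus strand, with 16 bases in an annotated exon of another Cpt1a transcript. On the minus strand lie the windows of Hadh at chr3:131272102-131272351, Acads at chr5:115119347-115119596 and Acadl at chr1:66863310-66863559.
Cpt1a: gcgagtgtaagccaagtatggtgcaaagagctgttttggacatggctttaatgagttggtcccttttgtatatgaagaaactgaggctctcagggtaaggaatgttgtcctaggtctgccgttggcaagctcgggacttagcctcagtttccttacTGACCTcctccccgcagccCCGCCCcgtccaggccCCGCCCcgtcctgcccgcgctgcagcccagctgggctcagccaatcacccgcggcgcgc
Hadh: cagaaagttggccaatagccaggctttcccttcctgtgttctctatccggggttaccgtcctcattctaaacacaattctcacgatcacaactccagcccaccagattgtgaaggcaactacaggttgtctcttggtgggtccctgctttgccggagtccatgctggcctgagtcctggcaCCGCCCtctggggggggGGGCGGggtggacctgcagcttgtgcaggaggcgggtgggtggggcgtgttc
Acads: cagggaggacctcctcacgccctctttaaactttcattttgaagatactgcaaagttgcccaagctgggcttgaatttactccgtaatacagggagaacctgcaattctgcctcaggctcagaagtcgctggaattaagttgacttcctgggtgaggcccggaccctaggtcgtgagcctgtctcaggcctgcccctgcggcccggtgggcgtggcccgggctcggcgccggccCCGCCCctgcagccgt
Acadl: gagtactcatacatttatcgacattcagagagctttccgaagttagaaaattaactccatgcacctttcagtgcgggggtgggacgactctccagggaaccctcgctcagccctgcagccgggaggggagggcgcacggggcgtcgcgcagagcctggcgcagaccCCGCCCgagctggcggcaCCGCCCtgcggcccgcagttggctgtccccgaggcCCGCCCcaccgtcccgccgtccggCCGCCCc

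Of the 9 called genes, 8 have a window in the RefSeq table, and so have 32 of the 39 tested genes. AGGTCA was found in 1 of the 8 (Cpt1a, in a window with 2 GC boxes), in 4 of the 32, and in 14.0% of all 32851 windows of this length (12.9% of the tested genes that have a window). The direct repeat that PPARα can bind, AGGTCA followed after 1 base of any kind by another AGGTCA on the same strand, was in 0 of the 32 and in 0.0335% of all windows. GGGCGG was in 7 of the 8 (all but Etfdh), in 23 of the 32 and in 32.7% of all windows (65.5% of the tested genes that have one). CCAAT, which is not in capitals, was in 5 of the 8, in 13 of the 32 and in 33.8% of all windows (40.4% of those genes). These are matches of letters within 250 bases, and nothing about the binding of any factor follows from them.

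The genes of fatty acid activation had log2 ratios from -0.00 to 0.14. Acsl1, Acsl3 and Acsl5 encode long-chain acyl-CoA synthetases, and 0 of the 3 were called by Cuffdiff, with 0 at an unadjusted p under 0.05. Acsl1, the most abundant of them, had 12.3 FPKM in OCaR1-/- and 12.3 FPKM in wild type, with a log2 ratio of -0.00 and q = 0.999 in the authors' deposited table. Acsl5 stood at 6.55 FPKM in OCaR1-/- and 6.31 FPKM in wild type, and Acsl3 at 1.91 FPKM in OCaR1-/- and 1.73 FPKM in wild type.

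The carnitine shuttle held the largest fall. Cpt1a (ENSMUSG00000024900, protein-coding, GRCm38 chromosome 19, 3322334 to 3385733, plus strand) encodes the outer membrane carnitine palmitoyltransferase, the step at which entry of long chains is controlled. It had 6.93 FPKM in OCaR1-/- and 14.7 FPKM in wild type, so 47.3% of the wild-type level, with a log2 ratio of -1.08 and q = 0.00152 in the authors' deposited table. That is the smallest q the table holds, reached by the 394 tested genes with the smallest p. Slc25a20, the carnitine-acylcarnitine translocase of the inner membrane, fell to 1.90 FPKM in OCaR1-/-, against 3.16 FPKM in wild type (log2 ratio -0.73, q of 0.00283, from the authors' deposited table). Cpt2, the palmitoyltransferase on the matrix side, had 8.65 FPKM in OCaR1-/- and 10.2 FPKM in wild type and had no call (log2 ratio -0.24, q of 0.726, from the authors' deposited table). Thus 2 of 3 tested shuttle genes fell, where 3.35% of all tested genes were called lower.

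The acyl-CoA dehydrogenases, which take the first electrons from chains of different length, divided by gene. Acadl, the long-chain enzyme, fell to 8.96 FPKM in OCaR1-/-, against 14.1 FPKM in wild type (log2 ratio -0.66). Acads, the short-chain enzyme, fell to 3.87 FPKM in OCaR1-/-, against 6.60 FPKM in wild type (log2 ratio -0.77). Their q in the authors' deposited table was 0.00152 for Acadl and 0.00404 for Acads. The enzymes for very long and medium chains were not called: Acadvl had 14.9 FPKM in OCaR1-/- and 13.9 FPKM in wild type, and Acadm had 7.54 FPKM in OCaR1-/- and 6.02 FPKM in wild type (q = 0.325 for Acadm in the authors' deposited table). The log2 ratios of this pair, 0.11 and 0.32, were thus on the other side of 0 from those of Acadl and Acads, although Acadvl turned to -0.06 under the rescaling. The interval of Acadvl is shared with Dvl2 and Mir324. Of the 50-base stretches of its transcripts, 23.5% also occur in Dvl2, so its value is less certain. Whether the ratio of 1 dehydrogenase differs from that of another was not tested.

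The other 3 members of the dehydrogenase family were also not called. Acadsb, which acts in isoleucine breakdown, was the most abundant of the family at 62.2 FPKM in OCaR1-/- and 44.4 FPKM in wild type, with a log2 ratio of 0.49 and q = 0.766 in the authors' deposited table. Its row spans an interval that 21 other genes of the table share, so reads could be divided between neighbours. Acad9, known as an assembly factor of complex I, had 2.76 FPKM in OCaR1-/- and 2.39 FPKM in wild type. Acad11 had 5.88 FPKM in OCaR1-/- and 5.76 FPKM in wild type.

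Among the enzymes that complete the mitochondrial cycle, 2 of 5 fell (40%, beside 3.35% of all tested genes). Hadh (ENSMUSG00000027984, GRCm38 chromosome 3, 131233419 to 131272101, minus strand), the hydroxyacyl-CoA dehydrogenase of short and medium chains, also acts on glutamate dehydrogenase in islets. It had 23.2 FPKM in OCaR1-/- and 40.8 FPKM in wild type (1.76-fold lower, log2 ratio -0.82). Acaa2, the mitochondrial thiolase that releases acetyl-CoA, had 10.2 FPKM in OCaR1-/- and 16.2 FPKM in wild type (1.59-fold lower, log2 ratio -0.67). Both had q = 0.00152 in the authors' deposited table. Islet hormone genes were higher in OCaR1-/- in the same samples, and the part of islet cells in the Hadh value was not tested.

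The remaining 3 enzymes of the cycle were not called. Echs1, the short-chain enoyl-CoA hydratase, was the most abundant at 57.6 FPKM in OCaR1-/- and 55.0 FPKM in wild type (log2 ratio 0.07, q of 0.919, from the authors' deposited table). Hadha and Hadhb encode the subunits of the trifunctional protein, which handles long chains at the inner membrane. Hadha had 26.0 FPKM in OCaR1-/- and 29.9 FPKM in wild type. Hadhb had 2.71 FPKM in OCaR1-/- and 3.98 FPKM in wild type, a log2 ratio of -0.55, with p = 0.0269 and q = 0.193 in the authors' Cuffdiff table. Of the 50-base stretches of Hadhb transcripts, 57.5% also occur in transcripts of another gene, so its low value beside that of its partner subunit is uncertain.

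Unsaturated chains need auxiliary isomerases and reductases. Eci2, an enoyl-CoA isomerase placed in mitochondria and peroxisomes, fell to 20.8 FPKM in OCaR1-/-, against 33.7 FPKM in wild type (log2 ratio -0.70, q of 0.00152, from the authors' deposited table). Eci1, its mitochondrial counterpart, had 14.6 FPKM in OCaR1-/- and 17.1 FPKM in wild type and had no call (log2 ratio -0.22, q of 0.288, from the authors' deposited table). Decr1, the mitochondrial dienoyl-CoA reductase, had 4.44 FPKM in OCaR1-/- and 6.22 FPKM in wild type, a log2 ratio of -0.49, with p = 0.0165 and q = 0.143 in the authors' Cuffdiff table. Of the other genes placed in both organelles, Ech1, a dienoyl-CoA isomerase, had 16.4 FPKM in OCaR1-/- and 17.8 FPKM in wild type, and Crat, which moves acetyl groups to carnitine, had 8.74 FPKM in OCaR1-/- and 9.45 FPKM in wild type. All 5 of these genes had a log2 ratio below 0, as had 55.2% of all tested genes with a ratio, and only Eci2 passed the threshold. The ratios of Ech1 (-0.12) and Crat (-0.11) were small, and Crat shares its interval with Dolpp1.

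Electron transfer showed a fall in the gene downstream of the flavoprotein. Etfdh, the membrane dehydrogenase that hands the electrons to ubiquinone, had 9.04 FPKM in OCaR1-/- and 13.1 FPKM in wild type (log2 ratio -0.54, q of 0.0177, from the authors' deposited table). The flavoprotein subunit genes were not called. Of the 50-base stretches of Etfb transcripts, 57.7% also occur in transcripts of another gene, so its value is uncertain. Etfa had 24.9 FPKM in OCaR1-/- and 26.4 FPKM in wild type, and Etfb had 52.1 FPKM in OCaR1-/- and 54.2 FPKM in wild type, with a log2 ratio of -0.06 and q = 0.881 for Etfb in the authors' deposited table.

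**Figure D2:**
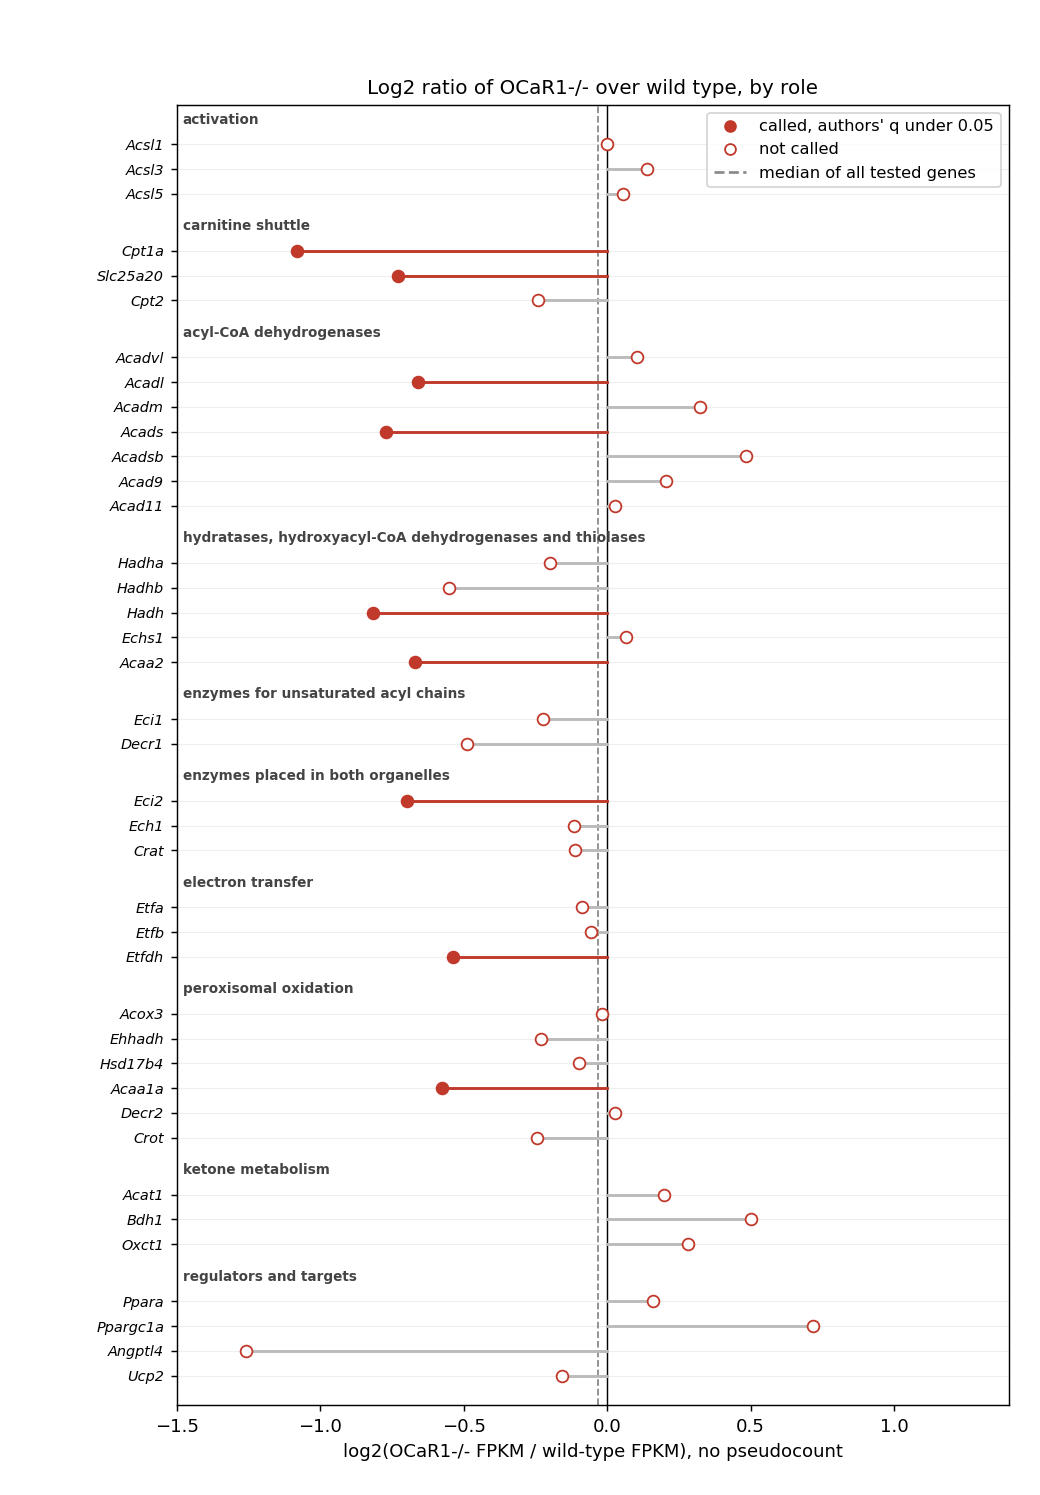
Log2 ratio of OCaR1-/- over wild type for the 39 tested genes in the same order, with filled circles for the 9 genes called at q under 0.05, open circles for the others and a dashed line at the median of all tested genes, -0.03. All filled circles lie left of 0, from -1.08 for Cpt1a to -0.54 for Etfdh, and the 3 ketone genes lie right of it as open circles.

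Peroxisomal oxidation had 1 call, lower, among 6 tested genes (16.7%, beside 3.35% of all tested genes). Acaa1a, the peroxisomal thiolase, had 18.9 FPKM in OCaR1-/- and 28.2 FPKM in wild type (1.49-fold lower, log2 ratio -0.58, q of 0.0229, from the authors' deposited table). It was the called gene nearest to the threshold. Its interval is shared with Myd88 and Oxsr1, and 26.7% of its 50-base stretches also occur in Acaa1b, a close copy, so this value is less certain than the others. Ehhadh, the bifunctional enzyme that PPARα is known to induce, had 5.60 FPKM in OCaR1-/- and 6.57 FPKM in wild type, a log2 ratio of -0.23, with p = 0.0399 and q = 0.248 in the authors' Cuffdiff table.

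The other 4 peroxisomal genes had log2 ratios from -0.24 to 0.03. Hsd17b4, the other bifunctional enzyme, had 9.37 FPKM in OCaR1-/- and 10.02 FPKM in wild type. Acox3, an oxidase of branched chains, had 4.74 FPKM in OCaR1-/- and 4.79 FPKM in wild type. Decr2, a peroxisomal reductase, had 10.5 FPKM in OCaR1-/- and 10.3 FPKM in wild type. Crot, which moves shortened chains to carnitine for export, had 2.84 FPKM in OCaR1-/- and 3.36 FPKM in wild type. Their q in the authors' deposited table ran from 0.389 for Crot to 0.991 for Acox3.

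The 3 genes of ketone body use had log2 ratios above 0 under each scaling run, and 0 of them were called by Cuffdiff, with 0 at an unadjusted p under 0.05. Oxct1, the transferase that commits ketone bodies to oxidation, had 18.4 FPKM in OCaR1-/- and 15.2 FPKM in wild type (log2 ratio 0.28, q of 0.495, from the authors' deposited table). Bdh1, which interconverts the main ketone bodies, had 3.44 FPKM in OCaR1-/- and 2.43 FPKM in wild type (log2 ratio 0.50, q of 0.432, from the authors' deposited table). Acat1, the acetoacetyl-CoA thiolase, which also acts on isoleucine, had 36.7 FPKM in OCaR1-/- and 32.0 FPKM in wild type (log2 ratio 0.20, q of 0.767, from the authors' deposited table). Of the 50-base stretches of Oxct1 and Bdh1 transcripts, 11.9% and 11.8% also occur in transcripts of another gene, so these 2 values are less certain. A q above the threshold does not show that the levels of the 3 genes were alike in both genotypes.

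The regulators and target genes of the list were not called. Ppara had 1.36 FPKM in OCaR1-/- and 1.22 FPKM in wild type, and the coactivator gene Ppargc1a had 1.07 FPKM in OCaR1-/- and 0.653 FPKM in wild type (q = 0.942 for Ppara and q = 0.351 for Ppargc1a in the authors' deposited table). Angptl4, a secreted inhibitor of lipoprotein lipase and a PPAR target, had 0.543 FPKM in OCaR1-/- and 1.30 FPKM in wild type. Its log2 ratio of -1.26 was the most negative of the 39, with p = 0.00685 and q = 0.0782 in the authors' Cuffdiff table, which makes it the uncalled gene nearest to the threshold. With a pseudocount of 0.5 FPKM that ratio is -0.79. Ucp2, a carrier of the inner mitochondrial membrane, was the most abundant gene of the 39 at 116 FPKM in OCaR1-/- and 130 FPKM in wild type (log2 ratio -0.16, q of 0.630, from the authors' deposited table). Ppargc1a, Angptl4 and Ppara lie just above the level of 1 FPKM in either genotype that every row of the table reaches. Ppargc1a reached it in OCaR1-/- alone and Angptl4 in wild type alone.

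Reads of other genes could enter few of the called rows. Of the 9 called genes, 7 have no 50-base stretch, the read length, in common with transcripts of another gene in GENCODE M21, and the exceptions are Eci2 (8.48%) and Acaa1a (35.5%). Of all 39, 8 share their interval with another row. Leaving those out gives 8 called lower and 0 higher.

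Other genes of the same pathways were taken from lists written by function. In the authors' deposited table, 7 of the 97 tested and reported here were called lower (7.22%, beside 3.35% of all tested genes) and 5 higher (5.15%, beside 4.20%), and the median log2 ratio was -0.03. The 7 are Pdk4, Fgf21, Prkaa2, Abcd3, Mgll, Mlycd and Slc27a1. The 5 are Cidec, Fabp4, Cd36, Aacs and Pparg. Values of Pdk4, Fgf21 and fat cell genes in these data were known when the lists were written.

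Among the 5 other ketone metabolism genes reported here, 1 was called, higher (20%, beside 4.20% of all tested genes). Aacs, a cytosolic synthetase that feeds ketone bodies into lipid synthesis, rose to 3.82 FPKM in OCaR1-/-, against 2.18 FPKM in wild type (log2 ratio 0.81, q of 0.00152, from the authors' deposited table). Slc16a6, the most abundant of the 5 and a transporter, had 13.0 FPKM in OCaR1-/- and 13.1 FPKM in wild type.

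Peroxisomal import and the control of the shuttle each had a gene that fell. Abcd3, a peroxisomal membrane transporter, had 10.9 FPKM in OCaR1-/- and 16.0 FPKM in wild type (log2 ratio -0.56). Mlycd, which breaks down malonyl-CoA, the inhibitor of carnitine palmitoyltransferase, had 7.93 FPKM in OCaR1-/- and 10.7 FPKM in wild type (log2 ratio -0.43). Their q in the authors' deposited table was 0.00152 for Abcd3 and 0.00628 for Mlycd. These were the 2 calls, both lower, among the 14 other peroxisomal genes reported here (14.3%, beside 3.35% of all tested genes). Pecr was the most abundant of the 14 (19.4 FPKM in OCaR1-/- and 20.8 FPKM in wild type).

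Among 22 other regulators and target genes, 3 fell (13.6%, beside 3.35% of all tested genes) and 1 rose (4.55%, beside 4.20%). Pdk4, a kinase that limits pyruvate oxidation and is a PPAR target, had 0.750 FPKM in OCaR1-/- and 3.02 FPKM in wild type. It passed the level of 1 FPKM through wild type alone. Fgf21, a hormone gene induced by PPARα in liver and by stress elsewhere, had 3.20 FPKM in OCaR1-/- and 8.77 FPKM in wild type. Prkaa2, a catalytic subunit of the energy sensor AMPK, had 1.28 FPKM in OCaR1-/- and 2.02 FPKM in wild type (log2 ratio -0.66). Pparg, the receptor of fat cells, rose to 1.65 FPKM in OCaR1-/-, against 1.03 FPKM in wild type. With a pseudocount of 1 FPKM, the log2 ratio was -0.40 for Prkaa2, -1.20 for Pdk4 (-2.01 without) and 0.38 for Pparg (0.68 without). Klf15, the most abundant of this list, had 26.8 FPKM in OCaR1-/- and 24.5 FPKM in wild type and was among those not called.

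Uptake and lipolysis genes gave 3 rises (18.8%, beside 4.20% of all tested genes) and 2 falls (12.5%, beside 3.35%) among 16 tested. Cd36, a fatty acid receptor, had 8.41 FPKM in OCaR1-/- and 4.74 FPKM in wild type. Fabp4, a fatty acid carrier, had 88.0 FPKM in OCaR1-/- and 46.7 FPKM in wild type, and Cidec, a lipid droplet protein, had 4.38 FPKM in OCaR1-/- and 1.76 FPKM in wild type. Lower were Slc27a1, a fatty acid transport protein, with 8.95 FPKM in OCaR1-/- and 11.4 FPKM in wild type, and Mgll, the monoacylglycerol lipase, with 11.6 FPKM in OCaR1-/- and 16.0 FPKM in wild type in a shared interval. Fabp4, Cidec and Pparg are also fat cell markers.

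**Figure D3:**
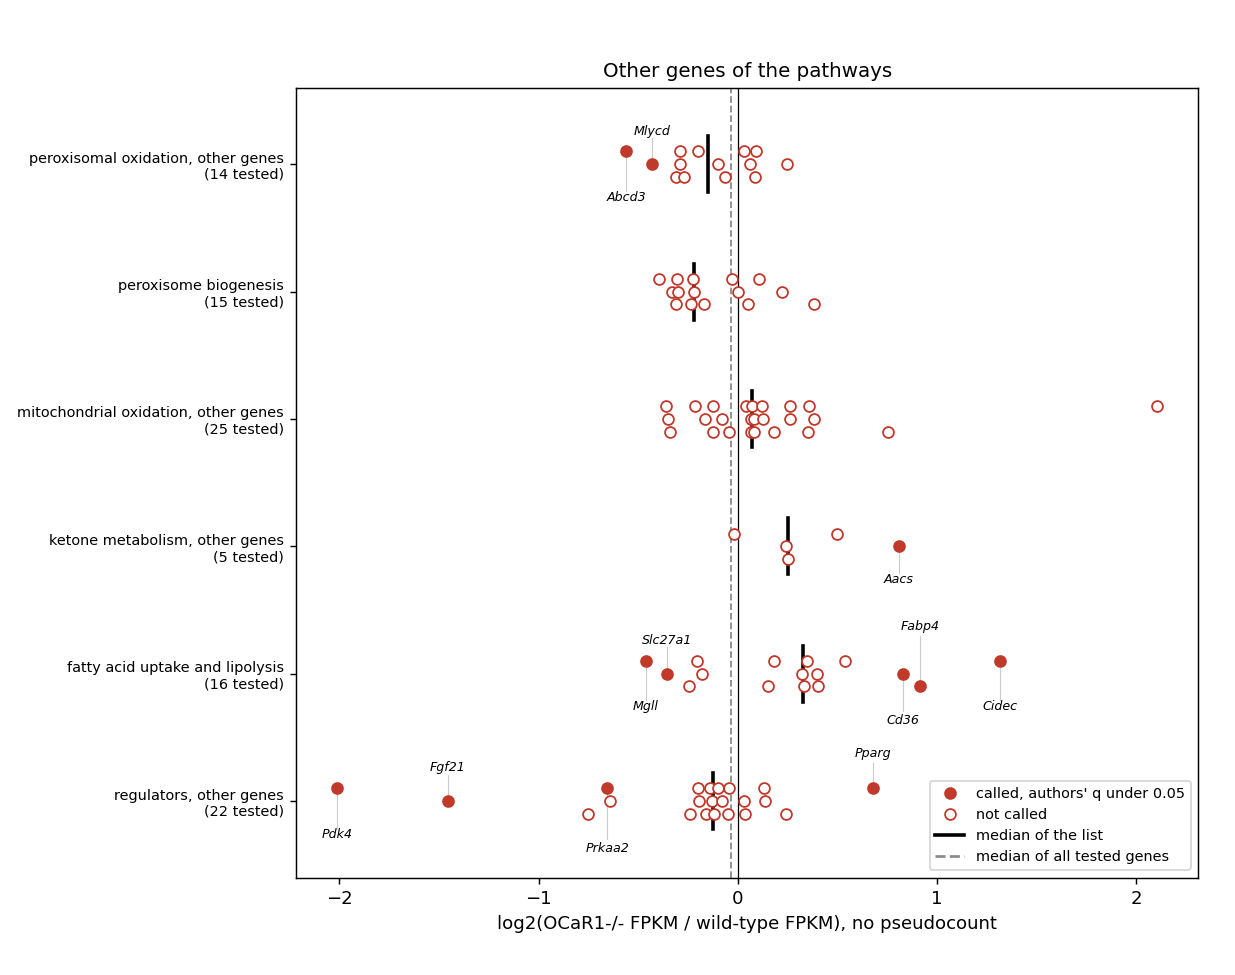
Log2 ratio of OCaR1-/- over wild type for 97 other genes of the pathways in 6 lists, with called genes filled and named, a bar at each list's median and a dashed line at the median of all tested genes. Pdk4 lies at -2.01 and Cidec at 1.32, while the 25 mitochondrial and 15 peroxisome biogenesis genes have no filled circle.

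Markers of several cell types moved in the same samples, where 3.35% of all tested genes were called lower and 4.20% higher. Fat cell markers summed to 205 FPKM in OCaR1-/- and 97.4 FPKM in wild type, with 7 of 10 called higher (Adipoq, Cfd, Retn, Car3, Cidec, Fabp4 and Pparg). Macrophage markers summed to 128 FPKM in OCaR1-/- and 72.5 FPKM in wild type, with 10 of 12 called higher (Lyz2, Mpeg1, Emr1, Cd68, Csf1r, C1qb, C1qc, Cd14, Ctss and Mrc1). Retn of the fat cell list and Mpeg1 and Emr1 of this list passed the level of 1 FPKM through OCaR1-/- alone, where they are high. Islet markers summed to 4115 FPKM in OCaR1-/- and 2565 FPKM in wild type, with 9 of 11 called higher (Ins1, Ins2, Gcg, Sst, Ppy, Iapp, Chga, G6pc2 and Slc30a8). The called genes of these 3 lists were all higher in OCaR1-/-.

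Smooth muscle markers that were called were all lower in OCaR1-/-. They summed to 31.9 FPKM in OCaR1-/- and 67.9 FPKM in wild type, and Tagln was the most abundant. Of 7 tested, 5 were called lower (Actg2, Cnn1, Myh11, Des and Acta2), so 71.4% beside 3.35% of all tested genes. Actg2 and Cnn1 passed the level of 1 FPKM through wild type alone, the genotype where they are high. Liver markers summed to 73.4 FPKM in OCaR1-/- and 46.6 FPKM in wild type, with 2 of 4 called lower, Alb at 0.746 FPKM in OCaR1-/- and 1.39 FPKM in wild type and Apoa2 at 0.300 FPKM in OCaR1-/- and 1.13 FPKM in wild type. Both reached 1 FPKM in wild type alone. The other 2 make up most of the liver marker sums, so those sums say little about Alb and Apoa2. Both lie in shared intervals and were not called. Ttr, the most abundant, had 34.7 FPKM in OCaR1-/- and 29.6 FPKM in wild type, and Trf had 37.6 FPKM in OCaR1-/- and 14.5 FPKM in wild type. The part of fat cells, macrophages, islet, smooth muscle or liver cells in the values of the 9 called oxidation genes was not tested.

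The remaining lists were those of acinar, duct, striated muscle and brown fat markers. Acinar markers had 2 of 13 called, both lower (Pnlip and Cela1), so 15.4% beside 3.35% of all tested genes. Their median log2 ratio was 0.09, and Prss2 was the most abundant. Duct markers summed to 267 FPKM in OCaR1-/- and 244 FPKM in wild type, and Muc1 was the most abundant. Of 7 tested, 1 was called, Sox9, higher (14.3%, beside 4.20% of all tested genes). Of 13 striated muscle markers 2 were tested, and Tnni3 was called higher. Of 7 brown fat markers only Prdm16 was tested, and it was not called. Ckm and Acta1, which define striated muscle, and Ucp1, which defines brown fat, were not analysed here.

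**Figure D4:**
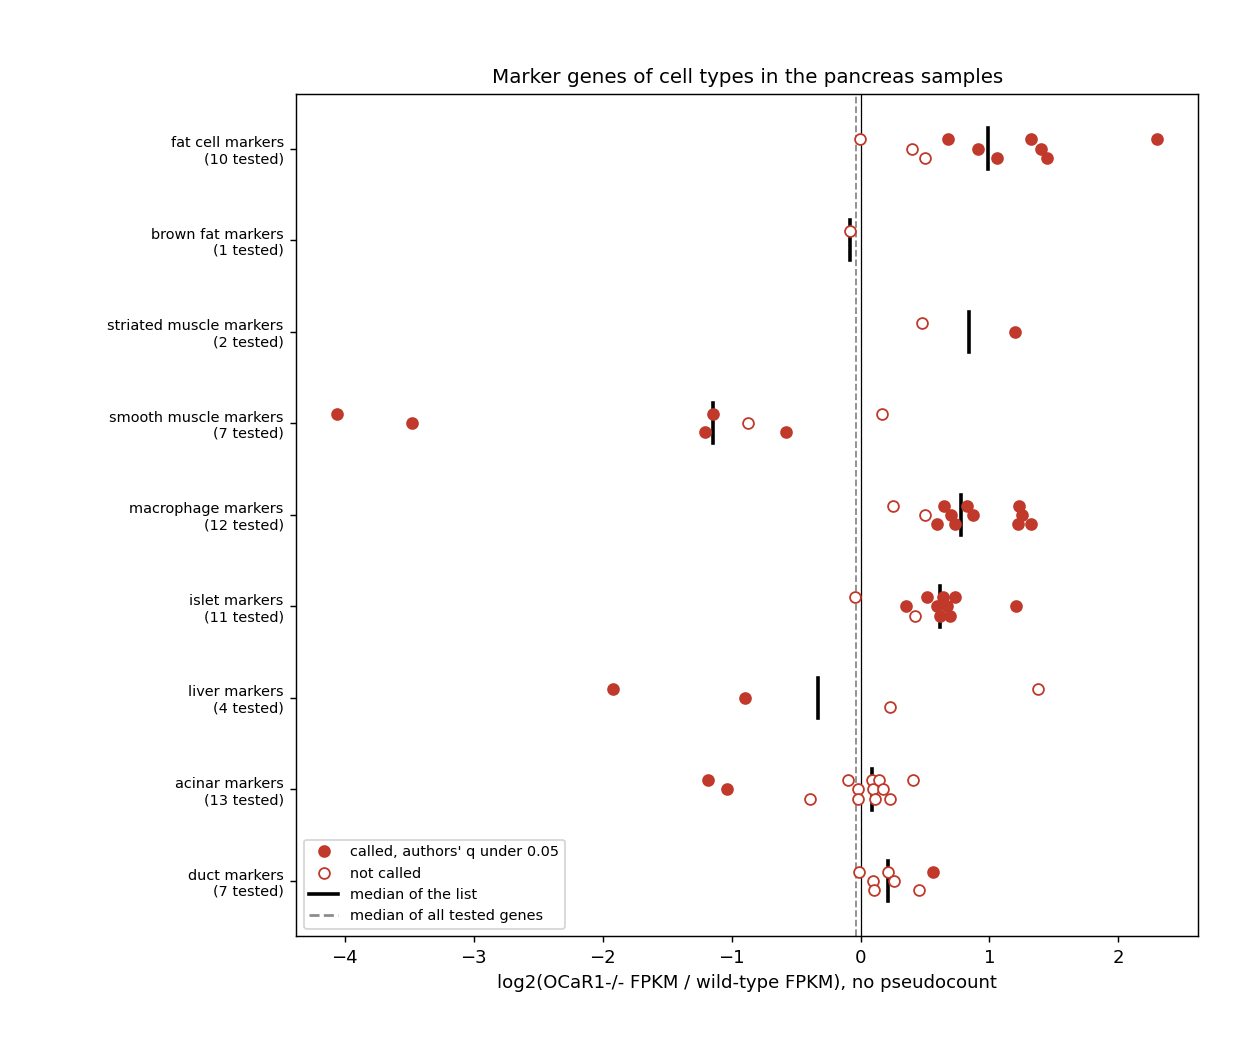
Log2 ratio of OCaR1-/- over wild type for the tested marker genes of 9 cell types, with called genes filled, a bar at each list's median and a dashed line at the median of all tested genes. Fat cell, macrophage and islet medians lie right of 0 at 0.99, 0.78 and 0.61, and smooth muscle lies left at -1.14.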

How the data were processed

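Pancreas RNA of 6 mice was sequenced after poly(A) selection of 2.5 µg RNA, as single reads of 50 bases, per the labels' protocols. The authors used STAR 2.5.1b, Cufflinks 2.2.1, Cuffdiff and build GRCm38, per the submitters' processing notes; the annotation, the use of strand and the treatment of reads with several matches were not given in the sources that were used. The deposited values are 1 FPKM per genotype, with the authors' p-value and q-value per the file headers. Depth is unknown, so no interval or detection floor is given, and columns of single samples numbered 0.

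The test on values per library planned for the case that the table held them was not possible, so the authors' q under 0.05 was used. Log2 ratios were computed from the deposited FPKM without a pseudocount (Python 3.11.15, pandas 2.3.3), and values under 0.01 FPKM were treated as listed at 0. The 538 rows that Cuffdiff did not test were left out. Genes were named by a rule: every listed gene, with full values for those called, those at an unadjusted p under 0.05, the most abundant of each role, those nearest to the threshold and the ketone genes, and every called gene and the most abundant gene of the other lists. The helper functions were tested on simulated data. Members and lists were chosen with earlier results of these data known, and a few genes of these pathways are not reported here. Promoter windows come from RefSeq (GRCm38.p6), and gene coordinates and shared stretches of 50 bases from GENCODE M21 of the same build, with protein-coding transcripts of each listed gene set against all transcripts on both strands. Alternatives were other thresholds, pseudocounts, scalings and a level of 5 FPKM.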

Additional observations from a re-analysis of the deposited data

How the results depend on the processing

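No paired analysis was possible because the table gives 1 value per genotype, and leaving out each replicate was not run for the same reason. The count of listed genes called lower was 9, and it was 7 at q under 0.01, 10 at q under 0.1, 9 with p-values adjusted again and 8 with at least 5 FPKM in either genotype; 0 were called higher under each. Among the other pathway genes, 5 were called higher, against 9 at q under 0.1 and 2 with at least 5 FPKM. Rescaled without the acinar marker genes, the medians were -0.28 (all listed genes tested), -0.40 (mitochondrial), -0.33 (peroxisomal) and 0.12 (ketone), and the median of all tested genes was -0.20. That rescaling turned the sign of 7 of the 39 single ratios and centring on the median turned 2. None of these were called, and neither shift could have turned a called gene, as all 9 had log2 ratios of -0.54 or lower. The same pseudocount added to both values cannot turn a sign. For all 4 medians, the sign was the same under each alternative run. With the pseudocounts it could not have changed, and the rescaling could have turned only the ketone median.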

Other observations

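Peroxisome biogenesis genes had 15 tested members and 0 calls by Cuffdiff, with 2 at an unadjusted p under 0.05, both lower (Pex2 and Pex26). Of all tested genes 7.54% were called and 17.5% had such a p, counting both directions. The median log2 ratio of the 15 was -0.22, and Pex2, the most abundant, had 14.8 FPKM in OCaR1-/- and 17.3 FPKM in wild type. Pex11a, a gene of peroxisome division and a PPARα target, had 13.4 FPKM in OCaR1-/- and 10.3 FPKM in wild type (q of 0.595, from the authors' deposited table).

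The list of 25 other mitochondrial genes held 0 calls by Cuffdiff, where 7.54% of all tested genes were called. An unadjusted p under 0.05, which 17.5% of all tested genes had, was found for 5 of the 25 (3 with a log2 ratio above 0 and 2 below). Ivd, the isovaleryl-CoA dehydrogenase of leucine breakdown and the most abundant of them, had 102 FPKM in OCaR1-/- and 78.1 FPKM in wild type (q of 0.394, from the authors' deposited table). Pcca and Pccb encode propionyl-CoA carboxylase. Pcca had 55.7 FPKM in OCaR1-/- and 53.0 FPKM in wild type, and Pccb had 39.4 FPKM in OCaR1-/- and 50.6 FPKM in wild type, with q = 0.249 for Pccb in the authors' deposited table.

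Acsm3, a medium-chain acyl-CoA synthetase, had 1.33 FPKM in OCaR1-/- and 0.308 FPKM in wild type, where its interval overlaps another row (q of 0.0591, from the authors' deposited table). Its log2 ratio was 2.11, and 0.83 with a pseudocount of 1 FPKM. It passed the level of 1 FPKM through OCaR1-/- alone.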
